A study of Mus musculus with 14 samples.

Results

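The genes examined in the brains of Rik-null mice were 10 hypothalamic neuropeptide genes: Gnrh1, Avp, Oxt, Agrp, Hcrt, Pmch, Ghrh, Trh, Crh and Kiss1. They are 10 of the 56748 genes of the deposited count table and were picked by name, with the lower level of Gnrh1 in Rik-null brains already known. The difference between the genotypes is therefore given for them as a description, and nothing is rested on it. The choice did not use the covariation of the genes within a genotype or the labelled sex, which are tested, or the spread within a genotype, which is described without a test. Lists of related genes were compared on the same contrast and were also chosen with earlier results known.

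The study sequenced RNA from 14 brains of C57BL6/J mice at postnatal day 14, 1 library per pup. Of these, 8 were from Rik-null pups, which are homozygous for a spontaneous deletion in the first intron of 2310061I04Rik (Rik), and 6 were from WT littermates. The deletion came from an embryonic stem cell clone used to make floxed Traf7 mice, and the floxed allele was bred out, so all mutants descend from 1 event. By the labels 7 Rik-null pups were male and 1 was female, while 2 WT pups were male and 4 were female. Each sample was one side of a brain cut along the midline, so the hypothalamus was a small part of the tissue, and fewer neurons of a type and less RNA per neuron cannot be told apart.

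Neuropeptides are made as long precursors that are cut, trimmed and amidated inside secretory granules. Within the hypothalamus, each gene described here marks a small group of neurons. GnRH neurons start the reproductive axis, and kisspeptin neurons drive them. Vasopressin and oxytocin come from the large neurons of the paraventricular and supraoptic nuclei. CRH, TRH and GHRH are released toward the pituitary, AgRP neurons of the arcuate nucleus drive feeding, and orexin (Hcrt) and MCH (Pmch) neurons of the lateral hypothalamus act on arousal and feeding.

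The stretches that code for the mature peptides of the genes on which the results turn are shown because they set Gnrh1 apart and show how close Avp and Oxt are. They are from GENCODE M21 transcripts (GRCm38), on the coding strand. For Avp and Oxt the capitals mark the 5 bases of 27 that differ. The Gnrh1 stretch codes for the 10 residues of GnRH and has no capitals.
Gnrh1: cagcactggtcctatgggttgcgccctggg
Avp: tgctacTtccagaactgcccAAGAggc
Oxt: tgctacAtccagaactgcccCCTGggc

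Avp and Oxt are neighbours on chromosome 2, 3566 bases apart and on opposite strands in the table. Their transcripts (577 and 537 bases) share an identical run of 127 bases further on, in the part that codes for the neurophysin carrier. Of 438 windows of 100 bases in the Oxt transcript, 28 lie wholly in that run. The window of 100 bases was a setting chosen here, not a stated read length. Reads that lie wholly in the run can belong to either gene, and the sources used here do not say how they were counted.

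The libraries held 15183130 to 28012811 counts in Rik-null brains and 18102343 to 30993890 in WT brains. Levels are given as CPM, counts scaled to a common library size (TMM). Rik had 7.44 to 10.6 CPM in Rik-null brains and 68.9 to 79.4 CPM in WT brains, so every genotype label held. The sex-linked genes Xist and Ddx3y went against the labelled sex in 2 WT libraries: WT 1, labelled male, had 436 CPM of Xist and 0 of Ddx3y, and WT 6, labelled female, had 0.162 and 54.8 CPM. Pituitary RNA was present in 2 libraries, where growth hormone (Gh) reached 44.5 CPM (Rik-null 5) and 185 CPM (Rik-null 8), against at most 0.961 CPM in WT brains. The neuronal genes Snap25, Syt1 and Rbfox3 were abundant in every library.

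Gnrh1 encodes the precursor of GnRH, and its position in the table is chr14:67982630-67986888 (plus strand, build not identified). In Rik-null brains 1 to 8 it had 0.597, 0.330, 0.394, 0.499, 0.464, 0.335, 0.762 and 0.954 CPM. In WT brains 1 to 6 it had 1.04, 1.28, 1.26, 1.39, 0.961 and 1.20 CPM. All 8 Rik-null libraries were below all 6 WT libraries, although Rik-null 8 lay just under WT 5. These levels rest on few reads, 5 to 27 counts per library in Rik-null brains and 19 to 42 in WT brains.

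The mean of Gnrh1 was 0.542 ± 0.220 CPM in Rik-null brains and 1.19 ± 0.160 CPM in WT brains (SD, n = 8 and 6). Its fitted log2 fold change was -1.09 with an SE of 0.22, which is 0.471 of the WT level. Gnrh1 was called lower at an adjusted p of 0.0116 by edgeR's quasi-likelihood test. Of 18170 genes tested, 2.20% were called lower in Rik-null brains, and 1.23% were lower with no overlap between the genotypes. Because Gnrh1 was chosen on this contrast, nothing is read from its call.

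The lower Gnrh1 level kept its direction in each choice of libraries, but the call did not always stand. With labelled sex as a term the log2 fold change was -1.12 (edgeR adjusted p = 0.064). Without WT 1 and WT 6, whose sex-linked genes go against their labels, it was -1.12 (edgeR adjusted p = 0.053). Among the libraries labelled male alone, 7 Rik-null and 2 WT, it was -1.02 (edgeR adjusted p = 0.403). Genotype and sex were unevenly combined in this design. The sex-term and male-only fits took the labels as given, and WT 1 was among the 2 WT libraries labelled male. These fits therefore cannot separate the parts of genotype and sex. When both mismatched libraries were dropped and the sex term was kept, the log2 fold change was -1.23. In that fit WT 2 was the only WT library labelled male, and Rik-null 5 the only Rik-null library labelled female. Without Rik-null 5 and Rik-null 8, which held pituitary RNA, the log2 fold change was -1.27 and Gnrh1 was still called (edgeR adjusted p = 0.0076).

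The libraries fell into 2 sets on the second principal component, A with Rik-null 1, 6, 7 and 8 and WT 1, 4, 5 and 6, and B with the rest. Within set A the log2 fold change of Gnrh1 was -0.72 (edgeR adjusted p = 0.308), and within set B it was -1.56 (edgeR adjusted p = 0.016). With the set as a block it was -1.04 (edgeR adjusted p = 0.006).

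The other genes were not called. Avp encodes vasopressin, the hormone of water balance. It had 12.1, 8.11, 11.5, 4.95, 13.02, 11.7, 9.05 and 6.57 CPM in Rik-null brains 1 to 8, against 3.22, 10.1, 7.76, 12.03, 15.2 and 10.6 CPM in WT brains 1 to 6. The genotypes overlapped widely, with WT 1 the lowest of all 14 libraries, and the log2 fold change was -0.06 (SE 0.26).

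Oxt encodes oxytocin, which acts in parturition, lactation and social behaviour. It had 5.67, 3.86, 5.74, 2.29, 4.68, 8.79, 1.52 and 2.40 CPM in Rik-null brains 1 to 8, against 0.436, 4.65, 5.79, 7.70, 6.39 and 5.44 CPM in WT brains 1 to 6. WT 1 held only 8 counts of Oxt, while the other WT libraries lay together. The log2 fold change was -0.28 (SE 0.39), and -0.49 without WT 1, with no call in either fit.

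Hcrt encodes the orexin precursor of wake-promoting neurons. It had 3.10, 0.848, 2.25, 1.66, 1.77, 3.42, 1.68 and 1.48 CPM in Rik-null brains 1 to 8, against 1.85, 2.17, 2.29, 4.33, 2.68 and 3.69 CPM in WT brains 1 to 6. Of the Rik-null libraries, 5 were below every WT library, and the other 3 overlapped with them. The log2 fold change was -0.55 (SE 0.26), the most negative after Gnrh1, with an edgeR adjusted p of 0.262.

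Pmch encodes the precursor of melanin-concentrating hormone. It averaged 2.27 ± 0.795 CPM in Rik-null brains and 2.61 ± 1.01 CPM in WT brains, ranging over 1.04 to 3.30 and 0.818 to 3.87 CPM. The lowest library was again WT 1. The log2 fold change was -0.25 (SE 0.27). Its span in the table overlaps that of Parpbp on the opposite strand, and the sources used here do not say whether the counting used strand.

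Agrp encodes the agouti-related peptide, which opposes melanocortin signalling. It averaged 0.628 ± 0.160 CPM in Rik-null brains and 0.757 ± 0.378 CPM in WT brains, on 4 to 38 counts per library. The log2 fold change was -0.31 (SE 0.29). The table's span for Agrp overlaps Ripor1 and Ctcf, both far more abundant and on the opposite strand. It also overlaps Gm45855 and Gm5914 on the same strand. These had 1891 and 208 counts over all libraries, against 223 for Agrp, so the counts of Agrp are uncertain.

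Trh and Crh encode the releasing hormones of the thyroid and adrenal axes, and both genes are also transcribed outside the hypothalamus. Trh averaged 11.3 ± 1.88 CPM in Rik-null brains and 10.2 ± 1.06 CPM in WT brains (log2 fold change 0.14, SE 0.11). Crh averaged 7.96 ± 1.26 CPM in Rik-null brains and 8.30 ± 0.503 CPM in WT brains (log2 fold change -0.06, SE 0.10). Both overlapped between the genotypes and had the smallest errors of the genes tested here.

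Ghrh, the releasing hormone of the growth axis, had 1 to 10 counts per library in Rik-null brains and 1 to 11 in WT brains. It averaged 0.194 ± 0.120 CPM in Rik-null brains and 0.229 ± 0.129 CPM in WT brains and was left out by the filter on low counts. Kiss1, which encodes kisspeptin, had 0 counts in all 14 libraries, which allows up to 0.0180 CPM over the Rik-null libraries and 0.0195 CPM over the WT libraries. The span of Kiss1 overlaps Golt1a and Gm28040 on the same strand, so reads could have been dropped or assigned elsewhere. In all, 8 of the 10 genes passed the filter and 1 of them was called, beside 3.31% called in either direction over all tested genes.

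**Figure D1:**
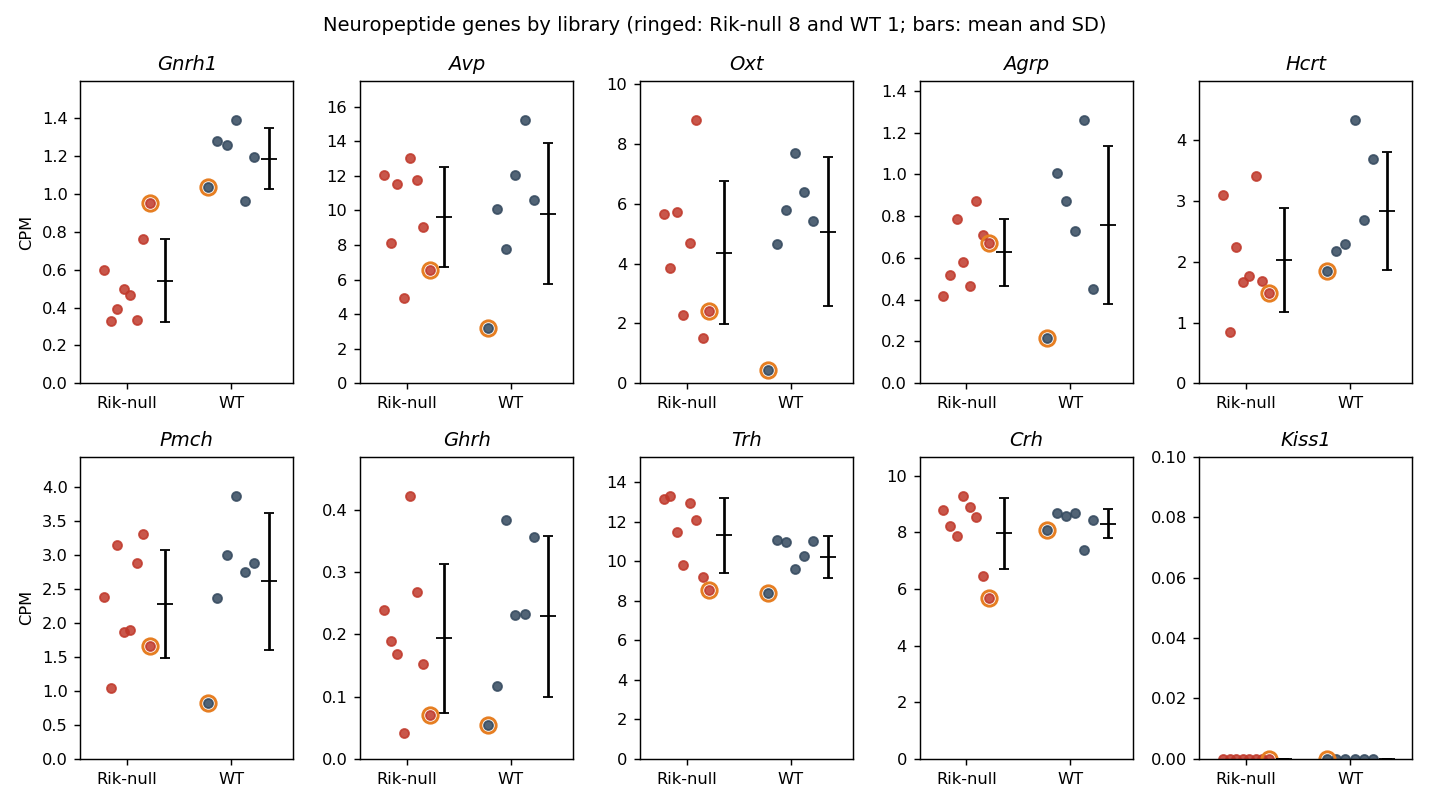
Level of each neuropeptide gene in CPM (y axis, linear, from 0) in each of the 8 Rik-null and 6 WT libraries (points in replicate order), with the mean and SD beside them. Gnrh1 is the gene whose genotypes do not overlap, Rik-null 8 reaching 0.954 CPM and WT 5 lying at 0.961 CPM, and WT 1 (ringed) is the lowest WT library for Avp, Oxt, Agrp, Hcrt, Pmch, Ghrh and Trh.

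**Figure D2:**
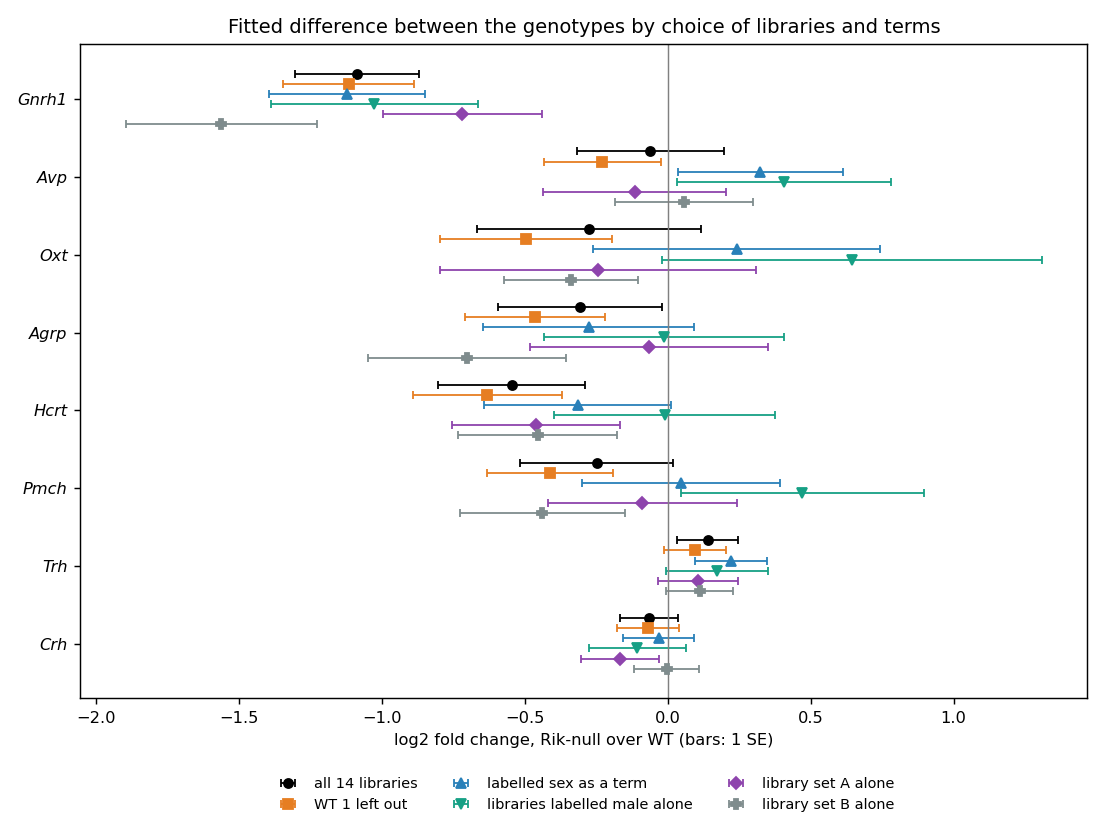
Fitted log2 fold change of Rik-null over WT (x axis) with 1 SE for the 8 neuropeptide genes tested, under 6 choices of libraries and terms (colours). Gnrh1 stays below 0 throughout, between -1.56 and -0.72, while Avp, Oxt and Pmch lie on either side of 0 depending on the choice. WT 1, whose sex-linked genes go against its label, is among the 2 WT libraries labelled male.

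Compared per kilobase of gene length over all 14 libraries, Avp was highest with 16.8 ± 5.73 CPM per kb. Oxt with 8.70 ± 4.39, Trh with 7.83 ± 1.18 and Crh with 6.14 ± 0.749 CPM per kb came next. Pmch with 3.23 ± 1.17 and Hcrt with 3.17 ± 1.29 CPM per kb were alike. Gnrh1 came seventh with 1.27 ± 0.594 CPM per kb, before Agrp with 0.674 ± 0.267, Ghrh with 0.313 ± 0.180 and Kiss1 at 0. Neighbours in this order overlapped within 1 SD, except Crh above Pmch, Hcrt above Gnrh1 and Ghrh above Kiss1. The deposited FPKM values gave the same order. By genotype some neighbours changed places within their spread: in Rik-null brains Trh (8.17 CPM per kb) was level with Oxt (8.14), and in WT brains Hcrt (3.79) was above Pmch (3.49).

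Within a genotype, most of these genes varied more between pups than a typical gene did. The within-genotype SD of log2 CPM was 1.13 for Oxt, 0.63 for Pmch, 0.62 for Avp, 0.56 for Agrp and 0.55 for Hcrt, beside a median of 0.17 over all tested genes. Counting error alone would give about 0.20 for Oxt, 0.22 for Pmch, 0.11 for Avp, 0.42 for Agrp and 0.22 for Hcrt. Gnrh1 had an SD of 0.38 with a prior count of 2 and 0.42 with 0.5, where counting error, computed with no prior count, would give 0.40. By genotype the SD of Gnrh1 was 0.47 in Rik-null brains and 0.19 in WT brains. Trh with 0.21 and Crh with 0.20 lay near the middle of all genes.

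For some of the genes much of the WT spread came from 1 library. Without WT 1 the SD of log2 CPM among WT brains was 0.27 for Oxt, 0.25 for Pmch and 0.35 for Avp, against 1.46, 0.74 and 0.77 with it. It was 0.50 for Agrp and 0.09 for Trh, against 0.78 and 0.16 with it. It moved little for Hcrt (0.42 without WT 1 and 0.46 with it), Crh (0.10 and 0.09) and Gnrh1 (0.19 in both). The summed level of the 10 genes was 24.1 CPM in WT 1 and 40.9 to 48.5 CPM in the other WT brains, and 28.1 to 48.9 CPM in Rik-null brains. Gnrh1 and Crh in WT 1 lay inside the range of the other WT libraries. WT 1 was also the lowest WT library for several hypothalamic transcription factors, though not for Arnt2, Pou3f2, Tbx3 or Bsx. Otp had 1.31 CPM in WT 1 beside a WT mean of 3.74 CPM. Nkx2-1 had 1.25 CPM beside 2.85 CPM, and Lhx9 had 5.12 CPM beside 9.07 CPM. How the brain was cut and divided in each pup was not tested.

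Some of the genes varied together between pups. After the genotype means were removed, 23 of the 28 pairs of the 8 genes with at least 0.5 CPM had a positive Pearson r over 14 libraries, with a median r of 0.23. Without WT 1, 17 of 28 were positive, with a median r of 0.09. Of these pairs, 3 passed a 2-sided permutation test with 100000 resamples and adjustment over the 28 pairs. Avp and Oxt had r = 0.849 (permutation adjusted p = 0.046) and rho = 0.767 (permutation adjusted p = 0.035). Hcrt and Pmch, both of the lateral hypothalamus, had r = 0.712 (permutation adjusted p = 0.046) and rho = 0.697 (permutation adjusted p = 0.064). Oxt and Trh had r = 0.674 (permutation adjusted p = 0.046) and rho = 0.341 (permutation adjusted p = 0.575).

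Without the 2 libraries farthest from the median of the first gene, r was 0.612 for Avp and Oxt, 0.613 for Hcrt and Pmch and 0.525 for Oxt and Trh. Without WT 1 no pair passed the adjustment. The r was then 0.638 for Avp and Oxt, 0.749 for Hcrt and Pmch and 0.656 for Oxt and Trh. Reads of the stretch that Avp and Oxt share could add to their r, which was not tested. By library set, Hcrt and Pmch had r = 0.67 within set A and 0.95 within set B, and Avp and Oxt had 0.92 and 0.84, with no pair past the adjustment. Without the 2 libraries farthest from the median in each set, Hcrt and Pmch had r = -0.04 in set A (without Rik-null 8 and WT 1) and 0.43 in set B (without Rik-null 2 and 3). Avp and Oxt then had r = 0.73 in set A and 0.48 in set B. Set A held 8 libraries and set B 6 before any were left out, too few to say on which libraries these relations rest.

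No relation of Gnrh1 with the other genes passed the test. Its r ran between -0.58, with Crh and with Trh, and 0.21, with Pmch, over 7 pairs (smallest permutation adjusted p = 0.171). Without Rik-null 2 and Rik-null 8 its r with Trh was -0.24 and with Crh was -0.26. With Crh it was -0.63 within set A and 0.81 within set B.

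**Figure D3:**
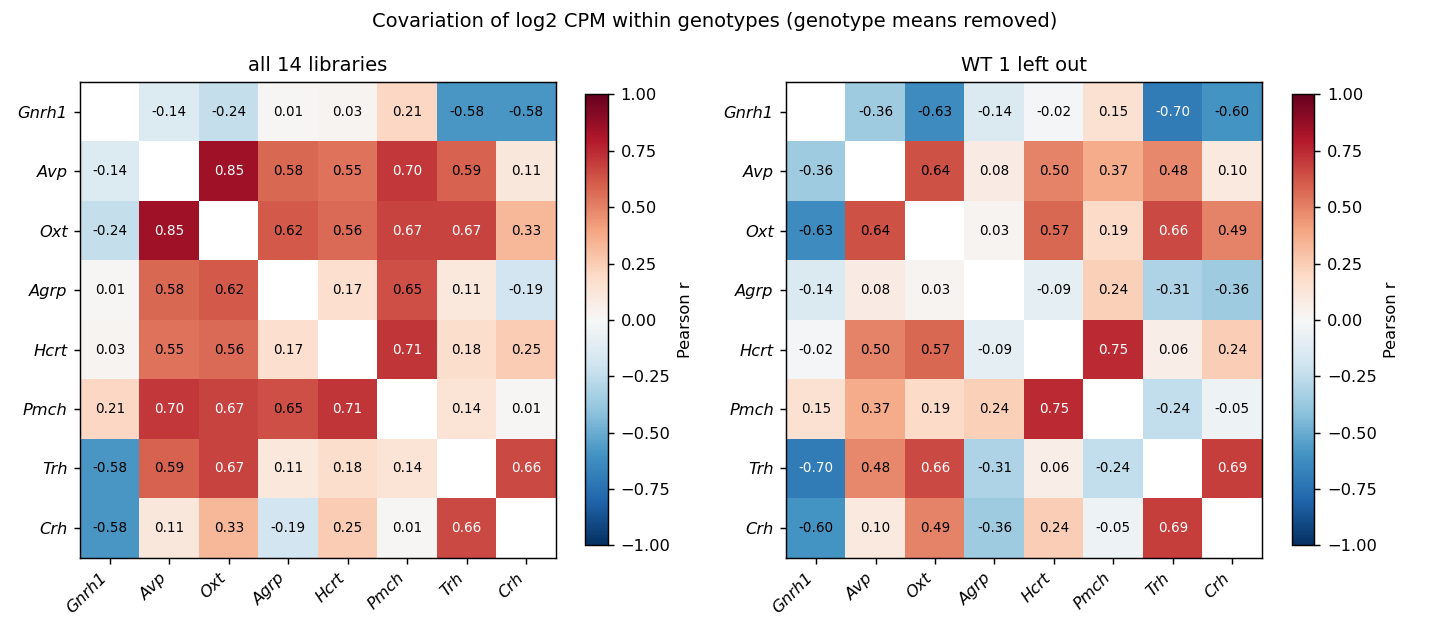
Pearson r (colour and number) between the log2 CPM of each pair of 8 neuropeptide genes after removal of the genotype means, over all 14 libraries (left) and without WT 1 (right). Hcrt and Pmch keep an r above 0.7 in both panels, most other positive values of Agrp and Pmch shrink without WT 1, and the lowest values of Gnrh1 are with Crh and Trh on the left and with Trh and Oxt on the right.

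Over the 15815 genes that averaged 1 CPM or more, the 5 whose deviations from the genotype means were most like those of Gnrh1 were Gm3636 (r = 0.882), Lman1 (r = 0.871), Gm44037 (r = 0.842), Gm5165 (r = 0.833) and Atp10b (r = 0.823). These are descriptions over 14 libraries, the highest of many values. Lman1, a cargo receptor between the endoplasmic reticulum and the Golgi, had a log2 fold change of 0.02 between the genotypes, and Gm3636 had -0.20. None of the 5 was called between the genotypes.

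By labelled sex, with genotype in the model, 0 of the 8 genes and 0 of all 18170 tested genes (0.00%) were called by edgeR. This test took the labels as given, although Xist and Ddx3y go against them in WT 1 and WT 6. The sex-linked Ddx3y was itself tested and not called, so the test cannot show that sex had no effect on these genes. Only Avp of the 8 had an edgeR unadjusted p below 0.05 (0.0386, female over male log2 fold change 0.66). Without WT 1 and WT 6 the edgeR unadjusted p of Avp was 0.178 (log2 fold change 0.39). Without WT 1 and WT 6, 7 of 18505 tested genes were called, and 0 of these 8 were among them. The log2 fold change of Gnrh1, female over male, was -0.06 (SE 0.27).

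Related genes were read against the 3.31% called over all tested genes, a share at which lists of this size would hold few calls or none. Of 24 other hypothalamic neuropeptide genes, 17 were tested and 0 were called by edgeR, with 3 at an unadjusted p below 0.05 (Tac1, Npy and Pomc) and 0 called by DESeq2. The most abundant were Cck with 217 CPM in Rik-null and 219 CPM in WT brains, Sst with 155 and 162 CPM, and Penk with 123 and 138 CPM. These levels are for the whole sample, and the share of the hypothalamus in them was not measured. Pomc had a fitted log2 fold change of 2.89 (edgeR adjusted p = 0.109) and ranged over 1.29 to 74.7 CPM in Rik-null brains and 1.78 to 4.70 CPM in WT brains. Its transcripts are also abundant in the pituitary, whose marker genes were high in Rik-null 5 and 8. The part of pituitary RNA in the level of Pomc was not tested.

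Of 16 receptors of these peptides, 12 were tested and 0 were called by edgeR, 1 at an unadjusted p below 0.05 (Crhr1) and 0 by DESeq2. Crhr1, the main CRH receptor of the forebrain, had 44.99 CPM in Rik-null brains and 48.5 CPM in WT brains. Kiss1r, the kisspeptin receptor carried by GnRH neurons, had 8.09 CPM in Rik-null brains and 8.03 CPM in WT brains. That level is for the whole sample, and the cells it came from were not determined. Kiss1r was named after its values were seen. The GnRH receptor Gnrhr was not tested, with 7 counts in all Rik-null libraries and 1 in all WT libraries.

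All 14 genes of peptide processing and the secretory granule were tested and 0 were called by edgeR, 1 at an unadjusted p below 0.05 (Chga) and 0 by DESeq2. Cpe, the carboxypeptidase that trims precursors, had 2330 CPM in Rik-null brains and 2246 CPM in WT brains. Of 16 hypothalamic transcription factors, 12 were tested and 0 were called by edgeR, 2 at an unadjusted p below 0.05 (Arnt2 and Six3) and 1 by DESeq2 (Arnt2). Arnt2, which is needed for the neurons that make oxytocin, vasopressin and CRH, had 234 CPM in Rik-null brains and 216 CPM in WT brains.

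Of 19 genes of GnRH neuron migration and sex steroid signalling, 16 were tested, 1 was called higher and 0 were called lower. It was Nrp1, a semaphorin receptor that guides GnRH axons and migrating GnRH neurons, with 25.2 CPM in Rik-null brains and 21.4 CPM in WT brains (log2 fold change 0.24, SE 0.06, edgeR adjusted p = 0.042). The list's count was 0 in 11 of 14 fits that left out 1 library, those without Rik-null 2, 3, 4, 7 or 8 or any WT library. Nrp1 is also made by vessels and many other neurons. Over all tested genes 1.12% were called higher.

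The median log2 fold change was -0.26 over the 8 neuropeptide genes tested, which were chosen with results known. It was -0.01 for the other neuropeptides, -0.01 for the receptors, 0.02 for processing, -0.01 for the transcription factors and 0.13 for GnRH migration, beside 0.00 over all tested genes.

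Markers of other tissues moved with the genotype in 2 of 11 lists. Beside the 1.12% called higher over all tested genes, choroid plexus markers were called higher in 3 of 6 (Ttr, Folr1 and Sostdc1), with a summed level of 477 to 608 CPM in Rik-null brains and 336 to 508 CPM in WT brains. Ttr lost its call in 7 of 14 fits that left out 1 library, those without Rik-null 4, 7 or 8 or WT 1, 2, 5 or 6 (edgeR adjusted p up to 0.085), while Folr1 and Sostdc1 were called in each of the 14. Meninges markers were called higher in 3 of 7 (Slc22a6, Dcn and Aebp1), with 113 to 156 CPM in Rik-null brains and 73.4 to 110 CPM in WT brains, and these 3 were called in each of the 14 fits. In the other 9 lists 0 genes were called by edgeR, although DESeq2 called Rorb and Lef1 among them, and over all 63 tested markers 16 had an unadjusted p below 0.05. The part of these tissues in the level of Gnrh1 was not tested.

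**Figure D4:**
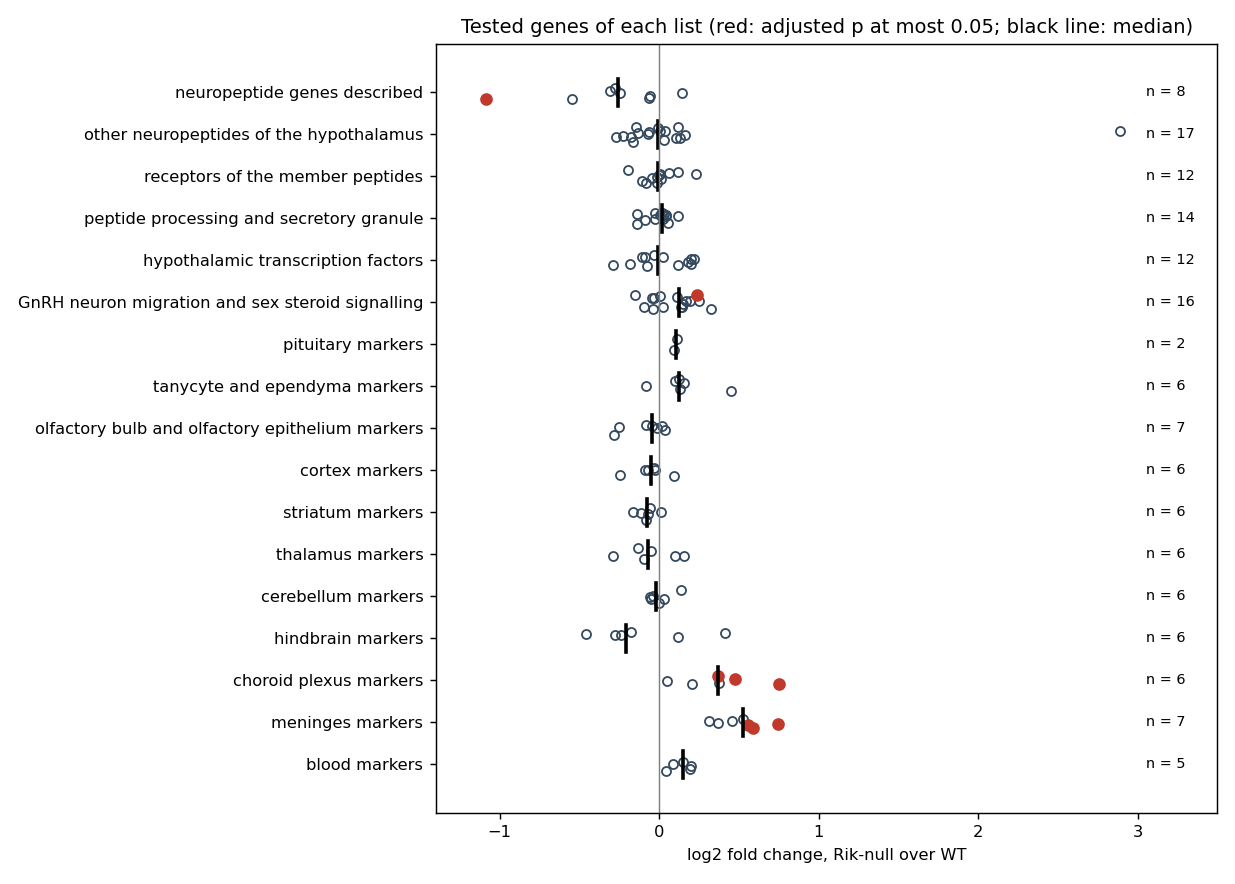
Log2 fold change of Rik-null over WT (x axis) for each tested gene of the 17 lists (rows, n beside them), filled red where the adjusted p was at most 0.05, with the list's median as a black line. Gnrh1 is the red point at -1.09 in the top row, Pomc is the open point at 2.89, and the other red points are Nrp1 and 6 markers of choroid plexus and meninges.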

How the data were processed

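RNA from one side of the brain of 8 Rik-null and 6 WT pups at postnatal day 14 was sequenced by a service laboratory. The authors deposited whole-number read counts per gene, without normalization, and FPKM values, here the count divided by a library factor and the gene length. For the aligner, annotation, strandedness and counting program the sources used here give nothing. Also in the deposited table is the authors' own DESeq2 comparison (means, fold changes, p-values), not used here. The labels name mm10, but 0 of the 10 genes start where GENCODE M21 (GRCm38) places them, so the table's positions belong to another build.

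Counts were fitted in R 4.3.3 with edgeR 4.0.16 (TMM, filter on low counts by genotype, 18170 genes, quasi-likelihood test, no term but genotype), with calls at 0.05 after Benjamini-Hochberg adjustment. SE values are the log2 fold change divided by the root of F. The prior count of log2 CPM was 2. DESeq2 1.42.0 was an alternative. The scripts were tested on simulated data. Correlations were tested in Python 3.11.15 by permuting 1 gene within genotypes.

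The genes and lists were chosen with earlier results of these data known. Named are all 10 genes, up to 4 called genes of each list and the 5 genes most like Gnrh1. Overlapping or neighbouring genes and the label checks are named too. The 3 most abundant genes are named for some lists, and for others only part of them or none. Other named genes are those behind counts of 5 or fewer, Gnrhr, Kiss1r, the neuronal markers and hypothalamic transcription factors compared between WT libraries. Pups share litters to an extent the labels do not give. Depth was 15183130 to 30993890 counts per library. Intervals and floors (3 counts) cover counting error only.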

Additional observations from a re-analysis of the deposited data

Results flagged for a closer look

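WT 1 stood apart from the other WT libraries in 3 of 50 groups of values examined, and chance flags about 1 group in 20. Its gap to the next library, as a share of the range of the 6 WT libraries in log2 CPM, was 0.816 for Oxt, 0.676 for Pmch and 0.757 for the summed level of the 10 genes, against a critical value of 0.625. The 3 are not independent, since the sum holds both genes. WT 1 is also one of the libraries whose sex-linked genes go against the labelled sex.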

How the results depend on the processing

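Depth limits Gnrh1, Agrp and Ghrh most, and the genotype is unevenly spread over labelled sex. Causes of the changes below were not tested.

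Gnrh1 kept its direction in all fits that tested it. Its call was lost with labelled sex as a term (-1.12), in libraries labelled male alone (-1.02), without WT 1 and WT 6 (-1.12), with both changes (-1.23) and within library set A (-0.72). The count of called neuropeptide genes was then 0, as it was with at least 10 counts in each library, where Gnrh1 was not tested. Leaving out each library in turn gave -1.28 to -1.005 and a count of 1 to 1.

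The direction of uncalled genes reversed in some fits. With labelled sex as a term Avp was 0.32, Oxt 0.24 and Pmch 0.047, and in libraries labelled male alone they were 0.41, 0.64 and 0.47. The 2 WT libraries labelled male were WT 1 and WT 2. WT 1, whose sex-linked genes go against its label, was the lowest WT library for Avp, Oxt and Pmch. Avp was 0.057 within library set B. Without 1 library Avp was -0.228 to 0.107 and Crh was -0.099 to 0.00024.

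All genes called were 602, against 1118 by DESeq2, 359 with no filter, 153 with labelled sex, 7 in males alone, 168 without WT 1 and WT 6, 8 with both changes, 310 without Rik-null 5 and 8, 1522 with the library set as a block, 46 within set A and 20 past a fold threshold of 1 on the log2 scale, and 287 to 820 without 1 library.

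With the library set as a block 1 other neuropeptide, 1 processing gene and 1 transcription factor were called, and DESeq2 called 1 transcription factor. The GnRH migration list had 2 calls by DESeq2 and with the set block, and 0 with no filter, with sex, in males alone, without WT 1 and WT 6 with or without sex, without Rik-null 5 and 8, in set A, thinned to the smallest library or with the fold threshold. Other-tissue markers had 3 calls with sex, 0 in males alone, 0 without WT 1 and WT 6 with sex, 11 with the set block, 1 in set A and 0 with the fold threshold. Without 1 library the counts were 0 to 2 for GnRH migration, 5 to 8 for other tissues, 0 to 1 for other neuropeptides and processing, and 0 to 0 for receptors and transcription factors.

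The 3 covarying pairs became 0 without WT 1 and WT 6, without Rik-null 5 and 8, within either set and without WT 1. The within-set fits, the same 12 libraries without a block and the correlations without WT 1 were chosen after seeing the data.

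Replicate numbers did not pair the libraries: same-number correlations were 0.195, 0.299, 0.316, -0.337, -0.110 and 0.215, and 1 of 6 WT libraries correlated best with its own number. With the replicate block over 12 libraries 763 genes were called, against 657 in those libraries without it, Gnrh1 was -1.43 in both, GnRH migration had 0 calls in both, Avp was 0.061 with it and 0.028 without, Oxt was 0.034 with it, and Crh was 0.052 with it and 0.051 without.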
